A study of Mus musculus with 6 samples.

Results

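The peroxiredoxins and the thioredoxin system were examined as 10 genes, Prdx1 to Prdx6, Txn1, Txn2, Txnip and Txnrd2, taken by gene symbol from the 54532 genes of the expression table. All 10 were found once and all 10 passed the limit on low values. MC3T3-E1 is a mouse pre-osteoblast cell line. Both groups were grown in osteogenic medium, which holds β-glycerophosphate, ascorbic acid and dexamethasone, and were induced for 3 days. The control group, with 3 samples, had this medium alone, and the metformin group, also with 3 samples, had 0.2 mM metformin added. Metformin is a biguanide that lowers blood glucose. The study describes the samples of each group as biological replicates of 1 cell line. The comparison asks which of these genes changed when metformin was present during osteogenic induction.

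Peroxiredoxins are thiol peroxidases that remove hydrogen peroxide and are oxidized at a cysteine in doing so. Thioredoxin reduces most of them again, and thioredoxin reductase restores thioredoxin with electrons from NADPH. Txn1 works in the cytosol and nucleus, while Txn2, Txnrd2 and Prdx3 work in mitochondria. Txnip binds reduced thioredoxin and inhibits it, and it also lowers glucose uptake by driving the glucose transporter GLUT1 off the cell surface. Osteoblasts generate peroxide in respiration and in the oxidative folding of secreted matrix proteins, and the endoplasmic reticulum has its own peroxiredoxin, Prdx4.

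The promoter windows of the 3 genes called changed are shown first, with that of Prdx1, the most abundant peroxiredoxin, as a member that was not called. They are RefSeq windows on GRCm38.p6, from 250 bases before to 50 after the annotated start. Windows were found for 9 of the 10 members, with none for Prdx6. Both strands were searched for 4 motifs. These were a carbohydrate response element, taken as 2 copies of CACGNG with 5 bases between them, which binds the Mondo factors with their partner Mlx, the FOXO element GTAAACA, an antioxidant response element, TGACNNNGC, which binds Nrf2, and the CCAAT box. Capitals mark the matches, each sequence reads 5′ to 3′ along the gene, and no matches of different motifs overlapped. The windows lie at chr3:96557707-96558006 on the plus strand for Txnip, chr4:57956362-57956661 on the minus strand for Txn1, chrX:155338411-155338710 on the minus strand for Prdx4 and chr4:116685349-116685648 on the plus strand for Prdx1.
Txnip: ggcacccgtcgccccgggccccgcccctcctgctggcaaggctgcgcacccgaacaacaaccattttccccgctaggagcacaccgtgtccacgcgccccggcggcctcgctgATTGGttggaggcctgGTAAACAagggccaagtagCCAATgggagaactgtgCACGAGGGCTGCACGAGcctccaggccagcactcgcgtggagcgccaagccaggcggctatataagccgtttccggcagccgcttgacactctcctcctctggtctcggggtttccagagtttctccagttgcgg
Txn1: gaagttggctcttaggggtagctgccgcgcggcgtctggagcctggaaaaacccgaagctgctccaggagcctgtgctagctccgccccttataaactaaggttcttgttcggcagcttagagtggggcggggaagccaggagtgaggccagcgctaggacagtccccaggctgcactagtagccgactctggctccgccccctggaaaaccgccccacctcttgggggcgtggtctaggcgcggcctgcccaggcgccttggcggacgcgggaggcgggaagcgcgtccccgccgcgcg
Prdx4: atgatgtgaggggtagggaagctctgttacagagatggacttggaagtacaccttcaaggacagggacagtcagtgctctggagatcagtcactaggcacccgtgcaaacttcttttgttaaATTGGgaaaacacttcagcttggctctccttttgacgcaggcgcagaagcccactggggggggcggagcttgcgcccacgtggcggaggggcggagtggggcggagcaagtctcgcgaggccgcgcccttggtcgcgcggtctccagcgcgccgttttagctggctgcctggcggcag
Prdx1: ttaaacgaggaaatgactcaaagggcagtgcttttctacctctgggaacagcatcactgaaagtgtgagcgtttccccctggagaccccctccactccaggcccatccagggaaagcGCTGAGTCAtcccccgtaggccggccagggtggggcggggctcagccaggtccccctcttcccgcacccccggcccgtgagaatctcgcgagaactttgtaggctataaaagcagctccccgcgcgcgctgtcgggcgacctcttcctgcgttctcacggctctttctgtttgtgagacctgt

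The Txnip window held a carbohydrate response element, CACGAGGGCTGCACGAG, from 85 to 69 bases before the start. The pattern of 2 copies of CACGNG occurred in 16 of 32851 promoter windows (0.0487%), and among the members in Txnip alone. The same window held a FOXO element from 121 to 115 bases before the start, a motif found in 3.65% of all windows, and a pair of CCAAT boxes, a motif found in 37.4%. The Prdx1 window held 1 antioxidant response element, which occurred in 12.4% of all windows. The Txn1 window held none of the 4 motifs, and the Prdx4 window held 1 CCAAT box. The Prdx4 window starts inside the gene as the expression table lists it. A match describes letters in these windows and is not evidence of binding.

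The deposited values are FPKM, the reads of a gene scaled by its listed length and by the library. The reads recovered from them were 18399861 to 20652437 per control sample and 19256672 to 22111790 per metformin sample. Control replicate 1 stood apart from the other controls, with a Pearson correlation of log2 values across genes of 0.96 and 0.952 with them, against 0.988 between control replicates 2 and 3. Its deviation from them followed the GC content of the transcripts (Spearman correlation across genes of -0.668, where genes are not independent). Of 8 osteoblast markers all were detected in every sample, with a summed level of 10004 to 11752 FPKM in the controls and 6793 to 7184 with metformin. Most of the control sum is Spp1, with a mean of 7703 FPKM in the controls and 2704 with metformin. Spp1 and Ibsp were called lower with metformin, Col1a1 and Col1a2 were called higher, and Runx2, Sp7, Alpl and Bglap were not called. Of 4 macrophage and 4 muscle markers none reached 0.5 FPKM in a sample. Of 4 adipocyte markers only Fabp4 did, and of 4 chondrocyte markers only Col2a1. Each of these 4 lists summed to at most 11.9 FPKM in a sample.

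The transcript of the inhibitor Txnip was lower with metformin, those of Txn1 and Prdx4 were higher, and the other 7 members were not called. By limma-trend on log2(FPKM + 1), with Benjamini-Hochberg adjustment over 12681 tested genes and an adjusted p-value under 0.05 as the threshold, 2 of the 10 members were higher and 1 was lower. Among all tested genes 13.2% were called higher and 9.28% lower, 22.5% in all. The median log2 fold change was 0.045 over the members and 0.0053 over all tested genes. The metformin samples lay entirely above the controls for 3 members and entirely below them for 2, against 23.6% and 20.5% of all tested genes. Without control replicate 1, 4 members were higher and 4 lower, without control replicate 2 Txn1 alone was higher, and without metformin replicate 1, 2 or 3 none was higher and Txnip alone was lower. Counts over all tested genes moved in these fits too. From 1670 higher and 1177 lower they became 2969 and 2590 without control replicate 1, and 1255 and 741 without control replicate 2. Without a metformin replicate they became 938 to 985 and 495 to 533. In bulk RNA, fewer cells that express a gene and less RNA per cell cannot be told apart.

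**Figure D1:**
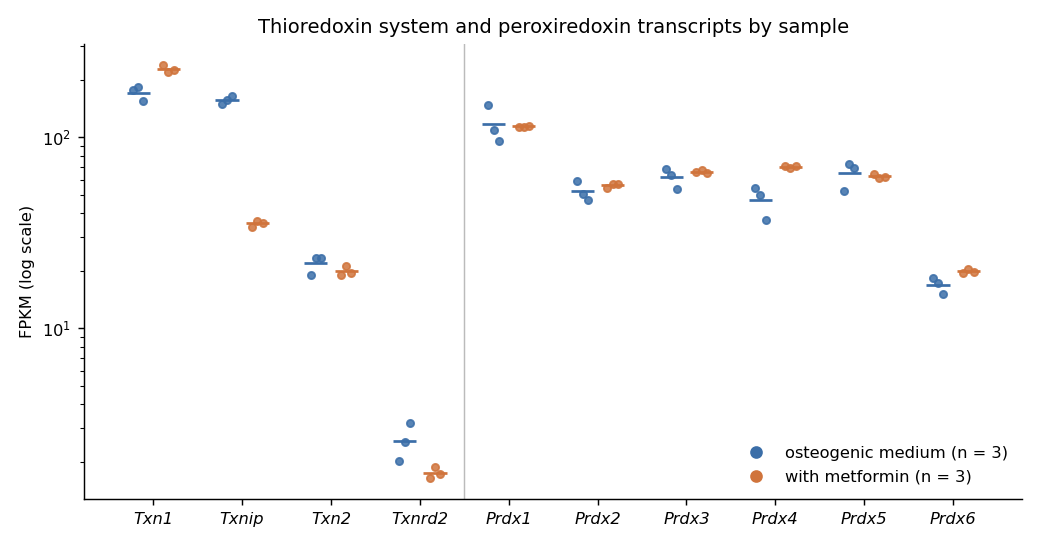
FPKM on a log axis of the 10 genes in each of the 6 samples, with points for samples and short horizontal lines for group means. Txnip is the gene whose groups lie farthest apart, at 149 to 164 FPKM in osteogenic medium and 33.8 to 36.4 with metformin.

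Txnip (ENSMUSG00000038393, on GRCm38 as all coordinates here at chromosome 3, 96557957 to 96561883, plus strand) had 149, 157 and 164 FPKM in the controls. It had 33.8, 36.4 and 35.8 FPKM with metformin. Every metformin sample was far below every control, and the samples within a group differed little. The mean fell from 156.5 ± 7.17 (SD, n = 3) to 35.3 ± 1.35 FPKM (SD, n = 3), and the level in the controls was 4.43 times that with metformin. The log2 fold change was -2.12 (standard error, SE, of 0.084 and limma-trend adjusted p = 6.43e-05), the lowest but 15 of the 12681 tested genes. It kept its call in all 6 fits that each left out 1 replicate, with log2 fold changes from -2.15 to -2.08. Between 2097 and 10260 reads per sample stood behind these values. The antisense gene Gm15441 overlaps Txnip and shares 443 identical bases with it, at no more than 0.588 FPKM in a sample.

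Txn1 (ENSMUSG00000028367, chromosome 4, 57943373 to 57956411, minus strand), the cytosolic thioredoxin, had 177, 183 and 155 FPKM in the controls. It had 239.9, 219.9 and 225 FPKM with metformin. All metformin samples were above all controls, although the gap was small beside that of Txnip. The mean was 171 ± 14.7 FPKM in the controls and 228 ± 10.4 with metformin (SD, n = 3 each), a log2 fold change of 0.41 (SE 0.10, limma-trend adjusted p = 0.0287). The call was lost without metformin replicate 1, 2 or 3 (limma-trend adjusted p = 0.141, 0.10 and 0.109), where the log2 fold change was 0.38, 0.44 and 0.42. It was also lost with no filter on low values (adjusted p = 0.0615). The processed pseudogene Txn-ps1 is 95.8% identical to Txn1 over 309 bases and had at most 1 read in a sample.

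The ratio of Txnip to Txn1 within a sample, the inhibitor over its target, was 0.845, 0.858 and 1.06 in the controls and 0.141, 0.166 and 0.159 with metformin. The groups did not overlap. The mean log2 ratio fell by 2.56 (exact two-sided permutation test, p = 0.10, the smallest p that 3 against 3 samples allow). In osteogenic medium Txn1 and Txnip were the most abundant of the 10 transcripts by FPKM and their ranges overlapped. With metformin Txnip was the seventh, below every peroxiredoxin but Prdx6. The FPKM rest on the listed gene length, which for 8 of the 10 genes exceeds the longest transcript of GENCODE M21, so levels compared between genes depend on it.

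In mitochondria, thioredoxin is Txn2 and its reductase is Txnrd2. Txn2 (ENSMUSG00000005354, chromosome 15, 77915047 to 77929006) had 19.0, 23.2 and 23.4 FPKM in the controls and 19.1, 21.3 and 19.4 with metformin. The groups overlapped, and the log2 fold change was -0.12 (95% interval -0.38 to 0.13, limma-trend adjusted p = 0.459). Without control replicate 1 it was called lower (-0.22, adjusted p = 0.0335). Txnrd2 (ENSMUSG00000075704, chromosome 16, 18426384 to 18479073), the least abundant member, had 2.02, 2.52 and 3.18 FPKM in the controls and 1.64, 1.88 and 1.73 with metformin. All of its metformin samples were below all controls, on 143 to 275 reads per sample. Its log2 fold change of -0.37 (95% interval -0.69 to -0.05) did not pass the test (limma-trend adjusted p = 0.096). With 0.1 in place of 1 added to the FPKM, the log2 fold change was -0.51, also not called (limma-trend adjusted p = 0.0918). Txnrd2 passed without control replicate 1 (-0.48, adjusted p = 0.0104) and after library-wise adjustment for GC content (-0.42, adjusted p = 0.0107).

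Ratios within a sample set the cytosolic genes against their mitochondrial counterparts. Txn1 over Txn2 was 9.30, 7.85 and 6.60 in the controls and 12.6, 10.3 and 11.6 with metformin. Txnrd1, the cytosolic thioredoxin reductase, over Txnrd2 was 11.9, 9.54 and 7.92 in the controls and 23.8, 21.3 and 22.3 with metformin. Neither ratio overlapped between the groups. The mean log2 ratios were higher with metformin by 0.55 and 1.22, each with an exact two-sided permutation p = 0.10, the smallest possible here. Both ratios were chosen after the values were seen, and with Txnip to Txn1 they make 3 ratios, whose adjusted p-values are also 0.10.

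**Figure D2:**
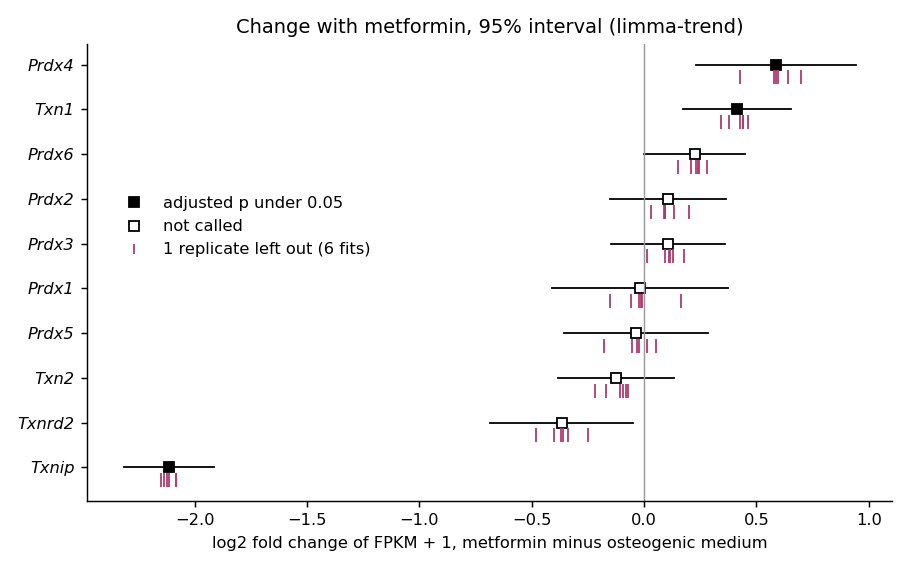
Log2 fold change of FPKM + 1 with metformin (squares) with 95% intervals from limma-trend for the 10 genes, filled where the adjusted p-value was under 0.05, and the values of 6 fits that each left out 1 replicate (ticks). The ticks of Txnip run from -2.15 to -2.08, and those of Prdx1 and Prdx5 lie on both sides of 0.

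Among the peroxiredoxins, Prdx4 alone was called. Prdx4 (ENSMUSG00000025289, X chromosome, 155323918 to 155340754, minus strand) encodes the peroxiredoxin of the endoplasmic reticulum, where it takes up peroxide made during disulfide formation. It had 54.3, 49.8 and 36.8 FPKM in the controls. It had 71.0, 69.2 and 70.5 FPKM with metformin. All metformin samples were above all controls, and the controls were more spread. The mean was 47.0 ± 9.09 FPKM in the controls and 70.2 ± 0.914 with metformin (SD, n = 3 each), a log2 fold change of 0.59 (SE 0.15, limma-trend adjusted p = 0.0323). The call was lost without control replicate 2 (limma-trend adjusted p = 0.0665), without metformin replicate 1, 2 or 3 (adjusted p = 0.115, 0.108 and 0.11) and with no filter on low values (adjusted p = 0.0683). Over the 6 fits that left out 1 replicate the log2 fold change of Prdx4 was 0.43 to 0.70.

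The cytosolic peroxiredoxins Prdx1 and Prdx2 were not called. Prdx1 (ENSMUSG00000028691, chromosome 4, 116685544 to 116700822) had 148, 109 and 95.4 FPKM in the controls and 113.2, 113.8 and 115 with metformin. The metformin samples lay within the range of the controls. Its log2 fold change was -0.017 (95% interval -0.41 to 0.37, limma-trend adjusted p = 0.954), and it was 0.16 without control replicate 1 (adjusted p = 0.105). The processed sequence Gm21399 is 98.3% identical to Prdx1 over 597 bases and had 2.39 to 6.05 FPKM, so reads could be split between them. Prdx2 (ENSMUSG00000005161, chromosome 8, 84969587 to 84974834) had 59.3, 50.5 and 46.7 FPKM in the controls and 53.9, 57.0 and 57.0 with metformin, with overlapping groups and a log2 fold change of 0.11 (95% interval -0.15 to 0.37). It was called higher only without control replicate 1 (0.20, limma-trend adjusted p = 0.0375). On the opposite strand Prdx2 overlaps Junb, an AP-1 subunit, which had 24.1, 84.1 and 89.6 FPKM in the controls and 171, 161 and 154 with metformin. Whether counting used strand is not stated in the sources used here, and the part of Junb reads in the Prdx2 values was not tested.

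Prdx3, the mitochondrial peroxiredoxin (ENSMUSG00000024997, chromosome 19, 60864051 to 60874556), had 67.8, 63.2 and 53.7 FPKM in the controls and 65.6, 67.3 and 65.1 with metformin. Prdx5 (ENSMUSG00000024953, chromosome 19, 6906697 to 6910106), found in mitochondria, peroxisomes and cytosol, had 52.5, 72.8 and 68.9 FPKM in the controls and 64.2, 61.4 and 61.9 with metformin. Both overlapped between the groups, with log2 fold changes of 0.11 (95% interval -0.15 to 0.36) and -0.037 (95% interval -0.36 to 0.28). Prdx3 was 0.18 without control replicate 1 and 0.012 without control replicate 3, and was called in neither fit. Prdx5 was called lower only without control replicate 1 (-0.18, limma-trend adjusted p = 0.0412), and its value was 0.054 without control replicate 2 and 0.014 without control replicate 3. Prdx5 shares 232 identical bases with Trmt112, which overlaps it on the opposite strand, had 36.5 to 42.0 FPKM in the controls and 25.5 to 29.3 with metformin, and was called lower (limma-trend adjusted p = 0.0169). Prdx6 (ENSMUSG00000026701, chromosome 1, 161240112 to 161251219), which is reduced by glutathione rather than thioredoxin and also acts as a phospholipase, had 18.2, 17.3 and 15.0 FPKM in the controls and 19.5, 20.4 and 19.7 with metformin. Its metformin samples were all above the controls, but the log2 fold change of 0.23 (95% interval 0.00072 to 0.45) did not pass adjustment (limma-trend adjusted p = 0.139), except without control replicate 1 (0.28, adjusted p = 0.0207).

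Summed over the 6 peroxiredoxins, the FPKM were 400.5, 362 and 316 in the controls and 387, 389.1 and 389.2 with metformin. The sums overlapped between the groups. Within that sum, Prdx4 made up 13.6%, 13.7% and 11.6% in the controls and 18.3%, 17.8% and 18.1% with metformin, the groups being apart by more than their spread. Prdx6 made up 4.55% to 4.78% in the controls and 5.03% to 5.23% with metformin, also without overlap. Prdx1 made up 37.0% in control replicate 1 and 29.2% to 30.1% in the other 5 samples. Prdx5 made up 13.1% in control replicate 1, 20.1% and 21.8% in the other controls and 15.8% to 16.6% with metformin. Prdx2 and Prdx3 each differed by at most 0.119 percentage points between the group means. These shares are a description and carry no test.

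**Figure D3:**
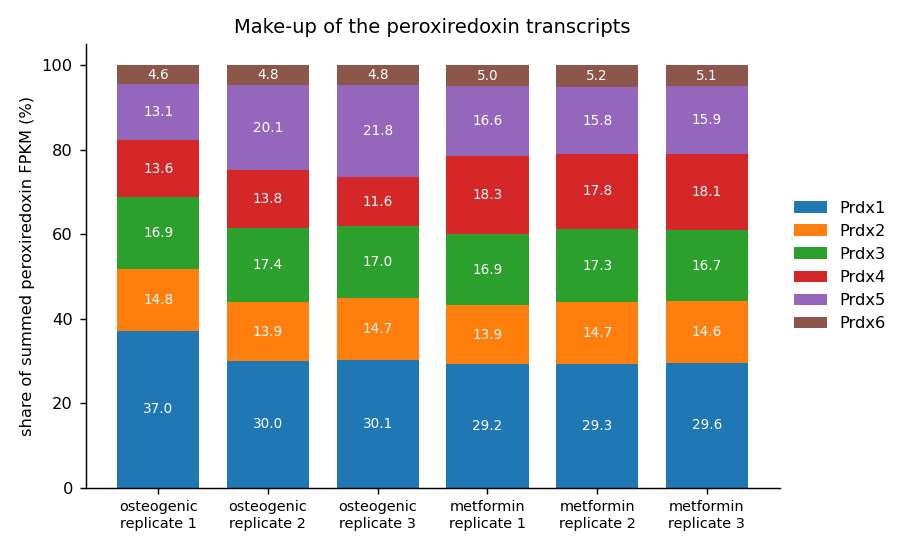
Share of each peroxiredoxin in the summed peroxiredoxin FPKM (%), stacked, for each of the 6 samples. Prdx4 is 11.6% to 13.7% in osteogenic medium and 17.8% to 18.3% with metformin, and control replicate 1 has the largest share of Prdx1 (37.0%) and the smallest of Prdx5 (13.1%).

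The controls varied more than the metformin samples. The coefficient of variation between samples ran from 4.58% for Txnip to 23.4% for Prdx1 in the controls, and from 0.857% for Prdx1 to 6.93% for Txnrd2 with metformin, and it was lower with metformin for 10 of the 10 members. The closeness of the metformin samples was not limited to the members. Across all tested genes their log2 values had Pearson correlations of 0.992 with each other, against 0.952 to 0.988 among the controls. Control replicate 1 against the mean of the other controls was 1.45 for Prdx1, whose transcript has the lowest GC content of the members (42.3%). It was 0.814 for Txn2, 0.707 for Txnrd2 and 0.742 for Prdx5, the 3 members with a GC content above 53%. For Txnip, at a GC content of 48.3%, it was 0.932. The part of GC content in the member changes was tested only through the GC correction, under which Txnip, Txn1 and Prdx4 kept their calls.

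Other genes of thiol redox control were taken as lists with 43 genes in all, of which 42 were tested. Metformin was accompanied by 5 higher and 4 lower genes, beside 13.2% and 9.28% of all tested genes, and their median log2 fold change was 0.15. Without control replicate 1 they were 15 and 8, without control replicate 2 they were 3 and 4, and without metformin replicate 1, 2 or 3 they were 1 to 2 and 3. The counts over all tested genes in these fits, given above with the members, moved too. The lists were written with earlier results of these data known.

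Among thioredoxin reductases, sulfiredoxin and sestrins, 2 of 6 genes were higher and 1 was lower, beside 13.2% and 9.28% of all tested genes. Txnrd1, the selenoprotein that reduces Txn1, had 24.0, 24.1 and 25.2 FPKM in the controls and 39.0, 40.0 and 38.5 with metformin. The groups were clearly apart, with a log2 fold change of 0.66 (SE 0.075, limma-trend adjusted p = 0.00146), called in all 6 fits that left out 1 replicate. Srxn1, which repairs overoxidized peroxiredoxins, had 38.5, 37.6 and 38.7 FPKM in the controls and 45.9, 49.2 and 47.5 with metformin (log2 fold change 0.31, limma-trend adjusted p = 0.0320). Its call was lost without control replicate 2 (adjusted p = 0.0849) and without metformin replicate 1, 2 or 3 (adjusted p = 0.115, 0.158 and 0.134). Over the 6 fits that left out 1 replicate the log2 fold change of Srxn1 was 0.28 to 0.33. Sesn1, a sestrin, had 98.5, 87.5 and 75.2 FPKM in the controls and 26.0, 25.8 and 25.6 with metformin. Sestrins restrain the mTORC1 kinase under stress. Its log2 fold change was -1.71 (SE 0.11, limma-trend adjusted p = 0.000193), and the call held in all 6 fits that left out 1 replicate.

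Txnip belongs to the alpha-arrestins, adaptors that bring membrane proteins to ubiquitin ligases. Of the other alpha-arrestins and the Mondo factors, 6 genes were tested, 3 were lower and none was higher. Among all tested genes 9.28% were lower and 13.2% higher, and a list this short carries no test. Arrdc2 had 30.8, 44.0 and 47.9 FPKM in the controls and 10.7, 9.23 and 9.18 with metformin (log2 fold change -1.95, SE 0.17, limma-trend adjusted p = 0.000478). Arrdc4, the closest to Txnip in its known control by Mondo factors, had 8.95, 7.33 and 8.39 FPKM in the controls and 5.15, 4.73 and 4.22 with metformin (log2 fold change -0.69, adjusted p = 0.00489). For both genes the groups did not overlap and the call held in all 6 fits that left out 1 replicate. Arrdc3 had 5.93, 4.54 and 5.22 FPKM in the controls and 3.31, 3.30 and 3.40 with metformin (log2 fold change -0.52, limma-trend adjusted p = 0.0128), and its call was lost without metformin replicate 1, 2 or 3 (adjusted p = 0.0639, 0.0637 and 0.0566). Over the 6 fits that left out 1 replicate the log2 fold change of Arrdc3 was -0.60 to -0.44. Mlxip, which encodes MondoA, had a log2 fold change of -0.26 and Mlx one of -0.092, and neither was called (limma-trend adjusted p = 0.0911 and 0.654). Mlxipl, which encodes ChREBP, was under the limit on low values. The carbohydrate response element letters found before Txnip were not in the windows of Arrdc2, Arrdc3 or Arrdc4. Only this pattern was searched, and only within these windows. Other forms of the element and sites farther away were not looked for, so no lack of the element follows. Of the 15 genes with these letters in a window, 9 were tested, of which Txnip was called lower and 1, Man2b2, was called higher (log2 fold change 1.02, limma-trend adjusted p = 0.00423; named after its values were seen).

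**Figure D4:**
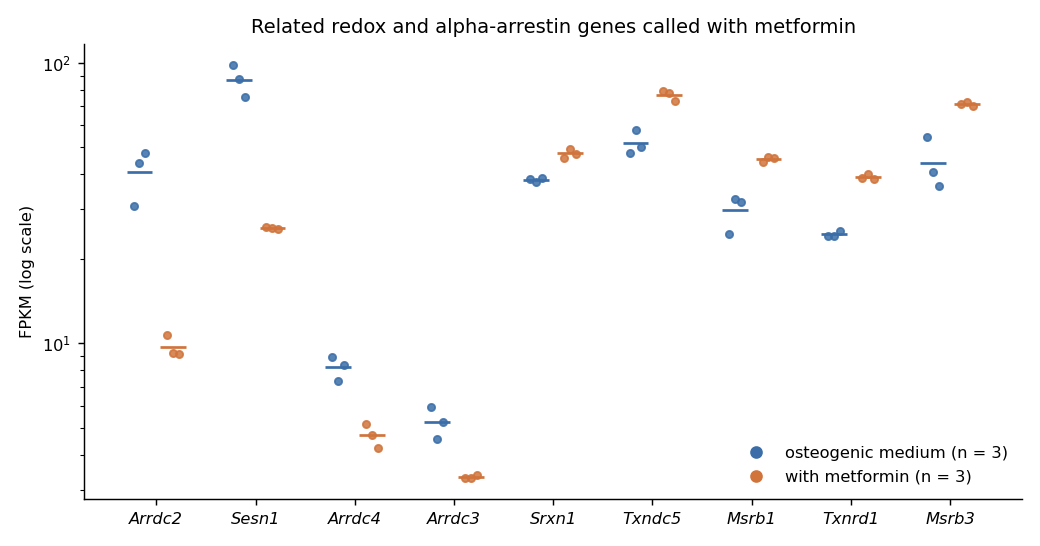
FPKM on a log axis of the 9 related genes called with metformin, in each of the 6 samples, with points for samples and short horizontal lines for group means. Arrdc2, Sesn1, Arrdc4 and Arrdc3 are lower with metformin and the other 5 are higher, and no gene overlaps between the groups. The genes were chosen by their call between these groups, so the lack of overlap is no further support. Among all tested genes the metformin samples lay entirely above the controls for 23.6% and entirely below for 20.5%.

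Methionine sulfoxide reductases, which repair oxidized methionine and are recycled by thioredoxin, had 2 of 4 genes higher, beside 13.2% of all tested genes. Msrb1 had 24.5, 32.8 and 32.0 FPKM in the controls and 44.4, 46.2 and 45.6 with metformin (log2 fold change 0.60, limma-trend adjusted p = 0.0156). Msrb3 had 54.4, 40.9 and 36.2 FPKM in the controls and 71.1, 72.5 and 70.0 with metformin (log2 fold change 0.71, adjusted p = 0.0179). All metformin samples were above all controls for both. The call of Msrb1 was lost without metformin replicate 1, 2 or 3 (adjusted p = 0.0642, 0.0737 and 0.0692), and that of Msrb3 without each of these (adjusted p = 0.0738, 0.0779 and 0.0686) and without control replicate 2 (adjusted p = 0.0649). Over the 6 fits that left out 1 replicate the log2 fold change was 0.48 to 0.68 for Msrb1 and 0.58 to 0.87 for Msrb3.

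Of 15 other proteins with a thioredoxin domain 1 was called, beside 22.5% of all tested genes called in either direction. Txndc5, a disulfide isomerase of the endoplasmic reticulum, had 47.8, 57.5 and 50.3 FPKM in the controls and 79.1, 78.3 and 73.3 with metformin (log2 fold change 0.56, limma-trend adjusted p = 0.00870), with its call lost without metformin replicate 1 or 2 (adjusted p = 0.0551 and 0.0526). None of the 6 protein disulfide isomerases and Ero1 oxidases, which make the disulfides and peroxide of the endoplasmic reticulum, was called, with log2 fold changes from 0.19 to 0.41. The largest was that of Pdia3, at 241, 193 and 170 FPKM in the controls and 264, 268 and 262 with metformin (limma-trend adjusted p = 0.0786). None of the 5 glutaredoxins and glutathione reductase was called either, and the largest value was 0.31 for Glrx (adjusted p = 0.212).

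The tested genes whose log2 values over the 6 samples were most like those of Txnip were Klhl30, Rin2 and Gpnmb, with Pearson correlations of 0.9994, 0.9993 and 0.9993. Gpnmb, a transmembrane glycoprotein that osteoblasts express, had 30.9, 34.0 and 33.4 FPKM in the controls and 10.9, 11.4 and 11.1 with metformin. Over 6 samples in 2 groups, 87 tested genes had a correlation above 0.99 with Txnip, which describes the shared difference between the groups.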

How the data were processed

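RNA sequencing of 6 MC3T3-E1 samples was deposited as 1 table whose unit is not named. The values are FPKM, as the deposited values times the deposited gene length were integer multiples of a sample-specific step in 100% of cases above 0 (tolerance 0.001). How the authors scaled reads is not given in the sources used here, and scaling by gene length and an effective library size was inferred from these steps. Relative to each other, the effective sizes (0.914 to 1.09) equalled median-of-ratios size factors of the recovered reads in all 6 samples. The values were therefore scaled by such factors rather than by total reads. The submitters' processing notes name Bowtie 0.12.2 and the builds mm8 and mm9. Of the 54532 gene identifiers, however, 53499 have the coordinates of GENCODE M21 (GRCm38), the build of all coordinates here. The counting tool is not given in the sources used here, and the authors tested with DESeq2. The 6 columns were matched by sample descriptions, with 0 other per-sample columns.

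Genes averaging 0.5 FPKM or more were compared with limma 3.58.1 (R 4.3.3, intensity trend) on log2(FPKM + 1). Fold changes on this scale understate changes of low genes. A floor of 3 reads is 1.36e-05% to 1.63e-05% of a sample, and covers counting error only. The fit was tested on simulated data. Near-identical transcripts had at least 95% identity over 200 bases (BLAST+ 2.17.0). GC content is that of the longest GENCODE M21 transcript. Named were the members, the called genes of each related list or else its largest change, and the 3 genes most like the member of largest change. The members and lists were chosen with earlier results of these data known. Alternatives were a pseudocount of 0.1, no filter, at least 10 reads in every sample, scaling by total reads, a replicate block, a GC correction (spline with 5 degrees of freedom), voom on recovered reads and leaving out each replicate. Figures used matplotlib 3.10.9.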

Additional observations from a re-analysis of the deposited data

How the results depend on the processing

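Txnip was called lower under every alternative run. The members called higher, 2 in all, numbered 0 when low genes were kept and 0 with the replicate block, where Txn1 had an adjusted p-value of 0.0895 and Prdx4 one of 0.0561, and 1 (Prdx4) with the replicate block and GC correction together. They were 0 to 4 across the 6 fits that each left out 1 replicate. The members called lower, 1 in all, were 2 with the GC correction and 2 with the block added to it, where Txnrd2 joined Txnip, and 1 to 4 across the fits that left out 1 replicate. Both maxima came without control replicate 1. Related genes called higher were 10 with the GC correction in place of 5, and 1 to 15 across the fits that left out 1 replicate, with lower ones from 3 to 8. Of all tested genes 1670 were higher and 1177 lower. The lower ones were 698 with the replicate block (higher 1161), 2433 with the GC correction (higher 2062) and 1888 with both (higher 1703), and across the fits that left out 1 replicate higher genes were 938 to 2969 and lower genes 495 to 2590. Keeping low genes means that more genes are tested. The cause was not tested for any of these changes in the counts. The GC correction moved all log2 fold changes by a median of -0.054 and scaling by total reads by -0.025.

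Prdx1 lay between -0.15 and 0.16 (log2 fold change) over the fits that left out 1 replicate, and Prdx5 between -0.18 and 0.054, changing sign without control replicate 1 (0.16) for Prdx1 and without control replicate 2 (0.054) or 3 (0.014) for Prdx5. Srxn1 lost its call with the replicate block (adjusted p = 0.137) and with the block and GC correction (adjusted p = 0.0946), and no other related gene named lost one outside the fits that left out 1 replicate. Deviations from the group mean correlated at -0.053, 0.00027 and -0.055 for the samples that share a number, so no deviation shared by number was seen. These correlations cannot show whether samples of the same number were cultured or processed together. Read depth is lowest for Txnrd2, with 143 reads in its lowest sample.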
